A study of Mus musculus with 6 samples.

Results

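The genes followed here belong to bone morphogenetic protein (BMP) and activin signalling and were read in cultured mouse lymphatic endothelial cells (LEC). They are the ligand genes Bmp2, Bmp4, Bmp6 and Inhba, the receptor genes Bmpr1a, Bmpr2 and Acvr1, and the antagonist genes Fst, Grem1 and Bambi. They were chosen by name, with earlier results of these data known. They make up 10 of the 18193 genes that the array reads under a single symbol. Each gene is given by its probe set with the highest mean over the 6 arrays. Tumour LEC came from T241/VEGF-C/GFP fibrosarcomas, tumours of a mouse fibrosarcoma line carrying the lymphatic growth factor VEGF-C and green fluorescent protein, in C57BL/6 mice whose age the labels do not give. Normal LEC came from the dermis of tail skin of female C57BL/6 mice aged 8 weeks, with no tumour and no transgene named. Both were grown in EGM-2 medium on gelatin and selected with antibodies to LYVE-1, although the description of the tumour cells runs into that of skin and leaves their later steps unclear. By title the tumour arrays hold fibrosarcoma tumour cells and only by source name LEC, and the source names are followed here. Each group had 3 arrays. Nothing in the labels says whether these were separate cultures or animals, or whether animals were pooled, so a p-value reflects spread among arrays that may be technical, and the number of arrays limits the precision.

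BMPs and activins are secreted dimers of the TGF-beta superfamily. A dimer brings together type I and type II receptors at the cell surface, the type II receptor activates the type I receptor, and the type I receptor phosphorylates SMAD1, SMAD5 and SMAD9 for most BMPs or SMAD2 and SMAD3 for activins. Secreted antagonists such as gremlin and follistatin bind the ligands before they reach a receptor, and BAMBI is a membrane protein that resembles a type I receptor without its kinase. In endothelium the pathway is known for its part in vessel growth and in the identity and valves of lymphatic vessels.

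Grem1 fell in tumour LEC and was the one gene of the 10 that passed the test. The other 9 did not pass an adjusted p of 0.05 (limma, Benjamini-Hochberg over the 12954 genes tested), among which 28 genes or 0.216% passed, 0.170% lower and 0.0463% higher. Inhba, the activin A subunit, and Bmpr1a, a type I BMP receptor, had log2 differences of -3.54 and -3.88 and adjusted p-values of 0.0580 and 0.0853. Bmp6, a BMP ligand, and Bmpr2, the type II BMP receptor, had higher values on every tumour array than on any normal array, with log2 differences of 2.21 and 0.96. For 5 of the 10 genes the groups did not overlap, 2 higher and 3 lower. Over all genes 32.4% did not overlap, 20.9% higher and 11.6% lower. These shares include genes at background, while none of the 10 was at background on all 6 arrays. The background limits were 3.40 to 3.47 on normal and 3.48 to 3.71 on tumour arrays. Probe sets without signal could also separate as higher. The second Inhba probe set, at background throughout, was higher on every tumour array, by 0.05 in the means. Without adjustment, 5 of the 10 had a p under 0.05 (limma), 2 higher and 3 lower, against 15.5% of all genes, 6.66% higher and 8.83% lower. The median log2 difference was 0.09 over the 10 genes and 0.03 over all genes tested. In bulk RNA of a cell preparation, fewer cells of a type and less RNA per cell cannot be told apart.

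**Figure D1:**
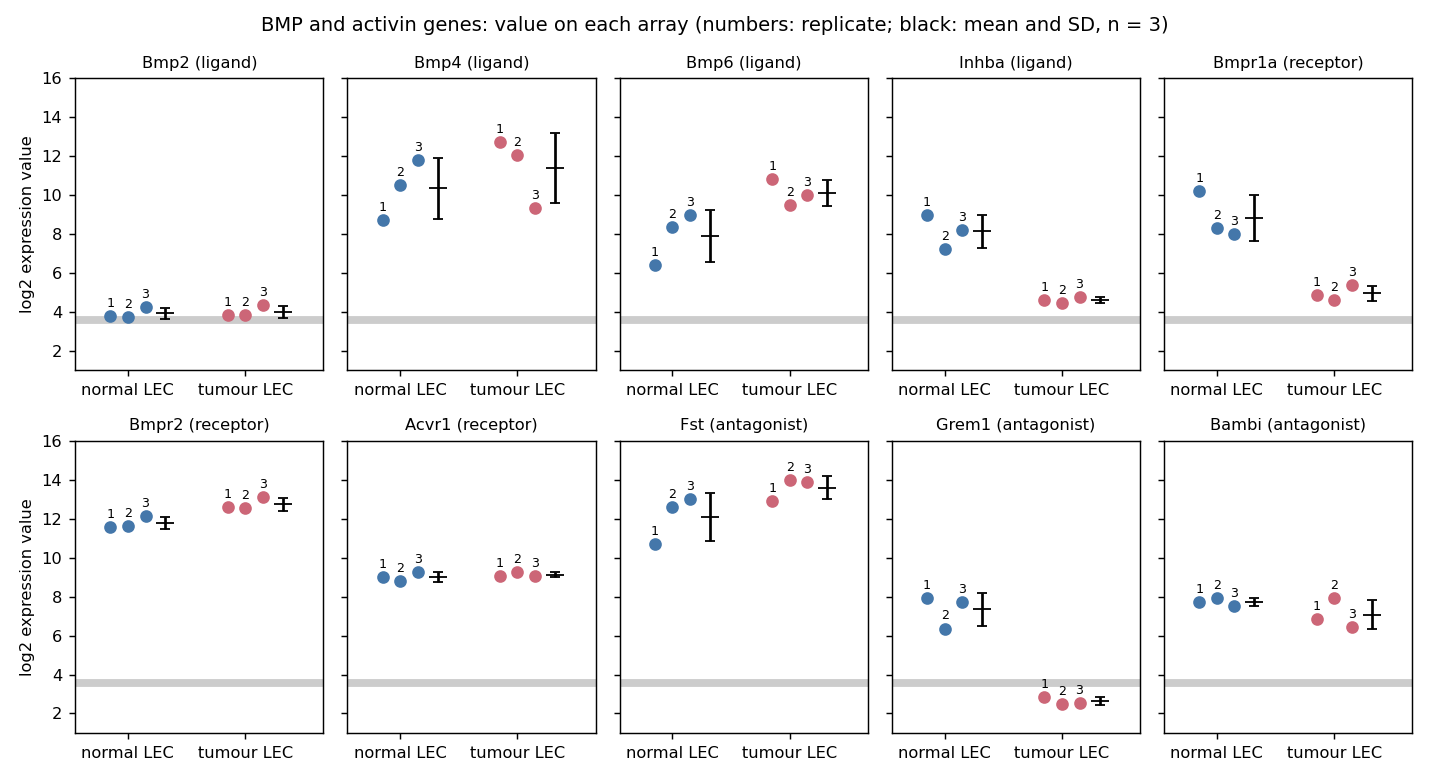
Log2 expression value of the 10 genes on each array, with normal LEC in blue, tumour LEC in red, the replicate number above each point, and the mean and SD (n = 3) in black. The grey band spans the background limits of the 6 arrays, 3.40 to 3.71, and Grem1 lies below it on all 3 tumour arrays while Inhba and Bmpr1a stay above it.

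The upstream sequences of the 3 genes with every tumour array below every normal array are shown, because these genes were lower together. They are the 250 bases before the annotated start, read 5′ to 3′ on the gene's strand, from RefSeq on build GRCm38.p6. Windows of 7 of the 10 genes were used here, and those of Bmp2, Fst and Bambi were not. Grem1 is at chr2:113758649-113758898 on the minus strand, Inhba at chr13:16011601-16011850 on the plus strand and Bmpr1a at chr14:34502547-34502796 on the minus strand. Capitals mark the motifs GGCGCC, a GC-rich element that SMAD1 and SMAD5 can bind, CAGAC, which holds the core of the SMAD-binding element, and TATAAA, the TATA box, each searched on both strands.
Grem1: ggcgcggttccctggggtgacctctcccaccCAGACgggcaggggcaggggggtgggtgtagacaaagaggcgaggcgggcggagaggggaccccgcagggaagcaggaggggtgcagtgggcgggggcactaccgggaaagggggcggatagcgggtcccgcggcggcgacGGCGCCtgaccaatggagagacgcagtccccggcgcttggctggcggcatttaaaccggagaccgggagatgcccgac
Inhba: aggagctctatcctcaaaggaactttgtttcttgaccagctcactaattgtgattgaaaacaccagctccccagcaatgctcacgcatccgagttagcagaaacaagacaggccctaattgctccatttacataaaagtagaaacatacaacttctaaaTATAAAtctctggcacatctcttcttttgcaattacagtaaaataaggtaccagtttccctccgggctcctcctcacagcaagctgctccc
Bmpr1a: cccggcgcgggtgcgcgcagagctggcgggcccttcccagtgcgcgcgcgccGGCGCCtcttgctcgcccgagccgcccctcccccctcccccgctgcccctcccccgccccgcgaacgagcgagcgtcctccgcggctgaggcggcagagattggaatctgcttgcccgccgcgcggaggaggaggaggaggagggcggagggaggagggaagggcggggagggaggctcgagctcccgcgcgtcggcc
GGCGCC occurs once for Grem1, beginning 78 bases before the start, and once for Bmpr1a, beginning 198 bases before it. It also occurs once for Bmpr2, whose tumour arrays were higher, and is in 9.59% of the 32851 upstream windows of the same length. CAGAC occurs once for Grem1, once for Bmp6, whose tumour arrays were also higher, and in 42.2% of all windows, and TATAAA once for Inhba and in 12.4%. The share of G and C was 72.0% for Grem1, 78.8% for Bmpr1a and 43.2% for Inhba, so the 3 windows differ in composition. A match is a run of letters and not a measured binding site.

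Among the ligands, Inhba encodes the beta A subunit, which pairs with itself to form activin A. It read 8.96, 7.25 and 8.23 in normal LEC replicates 1 to 3 and 4.63, 4.43 and 4.75 in tumour LEC replicates 1 to 3. The tumour arrays lay close together above background and 2.50 log2 units separated the highest of them from the lowest normal array. The means were 8.14 ± 0.86 in normal and 4.60 ± 0.16 in tumour LEC (SD, n = 3), an 11.6-fold difference with a 95% interval of -4.62 to -2.46 on the log2 scale (SE 0.43, limma, adjusted p = 0.0580). The threshold was met when normal replicate 1 was left out (-3.13, adjusted p = 0.0499), when normal replicate 2 was left out (-3.99, adjusted p = 0.0348), with arrays weighted by quality (adjusted p = 0.0257) and with the filter at the 60th percentile (adjusted p = 0.0305), and over all 16 alternatives its adjusted p ranged from 0.0257 to 0.227. Its second probe set was at background on all 6 arrays.

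Bmp6, a ligand made by endothelial cells and known for iron control in liver, read 6.42, 8.35 and 8.96 in normal LEC and 10.83, 9.51 and 10.03 in tumour LEC, replicates 1 to 3 in each. Normal replicate 1 was far below the other normal arrays, and the gap between the groups was 0.55. The difference was 2.21 (SE 0.73, 95% interval 0.40 to 4.02, limma, adjusted p = 0.254), or 4.64-fold. Without normal replicate 1 the log2 difference was 1.47.

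Bmp4, a ligand of mesenchymal and endothelial cells, varied more within the groups than between their means. Its range was 3.10 in normal and 3.38 in tumour LEC. It read 8.71, 10.51 and 11.81 in normal LEC and 12.74, 12.08 and 9.36 in tumour LEC. Tumour replicate 3 lay below 2 of the 3 normal arrays. The difference of 1.05 (SE 1.16, 95% interval -1.84 to 3.94) ranged from 0.23 without normal replicate 1 to 2.07 without tumour replicate 3. Bmp2, a close relative of Bmp4, was dim on all arrays, at 3.80, 3.74 and 4.25 in normal LEC and 3.82, 3.84 and 4.34 in tumour LEC, just above the background limits. The groups overlapped, and the difference of 0.08 (SE 0.22, 95% interval -0.46 to 0.62) changed sign in 3 of 15 alternatives.

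**Figure D2:**
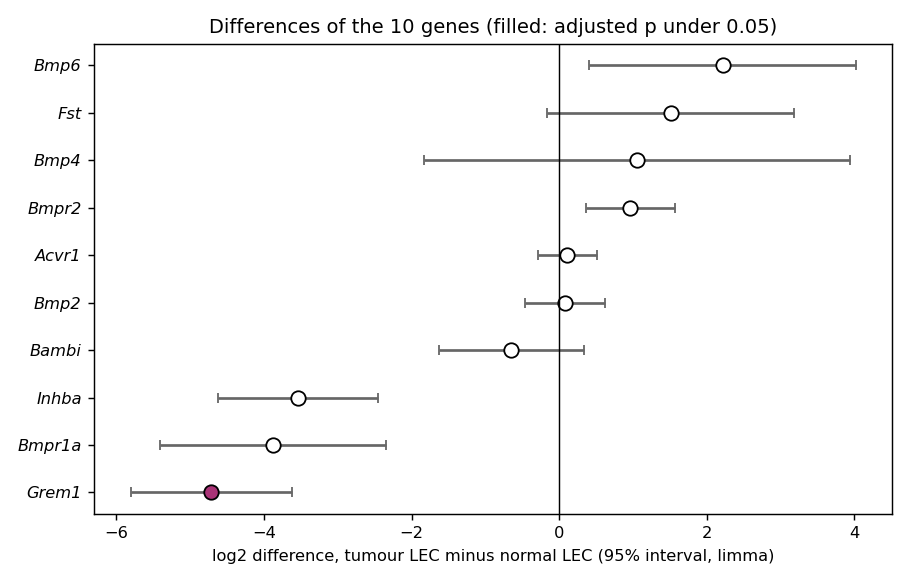
Log2 difference between tumour and normal LEC for the 10 genes, with 95% intervals from the limma fit, and a filled point where the adjusted p was under 0.05. Grem1 at -4.72, with its tumour values below background taken as they stand, is the filled point. The intervals of Bmpr1a, Inhba, Bmp6 and Bmpr2 also lie on 1 side of 0 before adjustment for the number of genes.

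Among the receptors, the type I receptor Bmpr1a (ALK3), which binds BMP2 and BMP4, had values of 10.20, 8.32 and 8.01 in normal LEC replicates 1 to 3 and 4.89, 4.60 and 5.38 in tumour LEC replicates 1 to 3. The groups were 2.63 log2 units apart at their nearest arrays, and normal replicate 1 stood above the other normal arrays. The means were 8.84 ± 1.18 and 4.96 ± 0.39 (SD, n = 3), a 14.8-fold difference with a 95% interval of -5.41 to -2.35 (SE 0.61, limma, adjusted p = 0.0853). Leaving out normal replicate 1 brought it past the threshold (-3.21, adjusted p = 0.0337), as did array weights (-4.03, adjusted p = 0.0361). Its adjusted p ranged from 0.0337 to 0.249 over 16 alternatives. The gene has 6 probe sets. All 4 that were above background on some array were lower on every tumour array than on any normal array, with differences of -3.88, -2.70, -1.79 and -1.76, and the other 2 were at background throughout. The probe sets at -1.79 and -1.76 were at background on 2 of the 3 tumour arrays. With values raised to the limit their differences were -1.57 and -1.62.

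Bmpr2, the type II receptor that pairs with BMPR1A, had values of 11.58, 11.63 and 12.16 in normal LEC and 12.59, 12.54 and 13.13 in tumour LEC. Replicate spread was similar in both groups, with SDs of 0.32 and 0.33 (n = 3), and the groups were 0.38 apart. The difference was 0.96 (SE 0.24, 95% interval 0.36 to 1.57, limma, adjusted p = 0.180), or 1.95-fold, and stayed between 0.65 and 1.15 over 16 alternatives, none of which passed. A second, dimmer probe set differed by 0.75 with overlapping groups, and the third was at background. Acvr1 (ALK2), a type I receptor for BMP6 and BMP7, was nearly level at 8.99, 8.79 and 9.27 in normal LEC and 9.06, 9.27 and 9.05 in tumour LEC. Its difference of 0.11 (SE 0.16) had a 95% interval of -0.29 to 0.51, and it was -0.0023 without normal replicate 2.

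**Figure D3:**
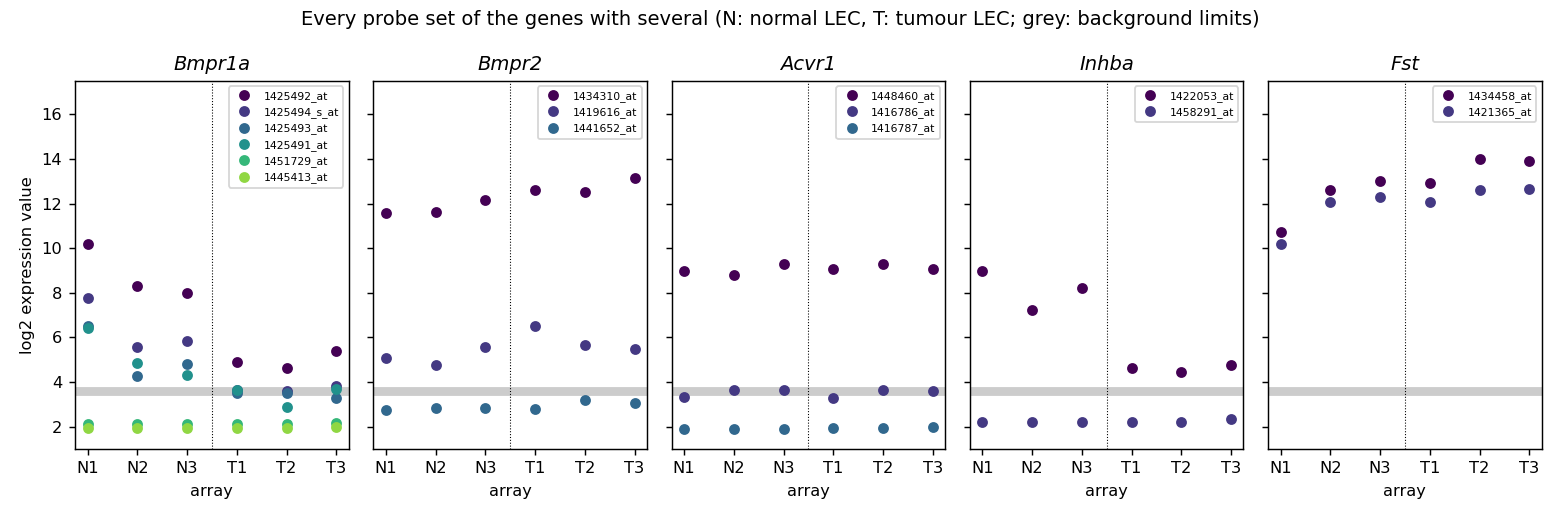
Log2 value of each probe set of the 5 genes that have several, on normal arrays 1 to 3 (N) and tumour arrays 1 to 3 (T), with the background limits in grey. The 4 upper probe sets of Bmpr1a are all lower on the tumour arrays, both probe sets of Fst are lowest on normal array 1, and 5 of the 21 probe sets of the 10 genes lie at background on every array.

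Among the antagonists, Grem1 encodes gremlin 1, a secreted protein that binds BMP2 and BMP4 and is known as a product of fibroblasts and stromal cells. It read 7.94, 6.37 and 7.74 in normal LEC replicates 1 to 3 and 2.86, 2.49 and 2.55 in tumour LEC replicates 1 to 3. All tumour values were at background, at or below the highest control probe set for bacterial RNA on their array. The means were 7.35 ± 0.86 and 2.63 ± 0.20 (SD, n = 3), and tumour LEC held at least 13.7-fold less Grem1 signal. The fitted difference of -4.72 on the log2 scale (SE 0.44, limma, adjusted p = 0.0383) uses the tumour values below background as they stand, and with these raised to the background limit it was -3.78 (adjusted p = 0.0483), which is the bound given. It ranked 20 among the 12954 genes by p. The call was lost without normal replicate 3 (adjusted p = 0.114) and without tumour replicate 1 (0.0880), 2 (0.107) or 3 (0.200), while the difference stayed between -5.21 and -4.42. It was also lost with no filter on low values (adjusted p = 0.0826). Over its 15 alternatives the adjusted p ranged from 0.00602 to 0.200 and 10 passed. Grem1 has 1 probe set, of a kind that can read several transcripts of a gene.

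The genes with the profile most like that of Grem1, by the root mean square difference of their deviations over the 6 arrays, were Mmp3 (stromelysin 1) at 0.31 log2 units, Perp at 0.42 and Nrn1 (neuritin) at 0.42. Mmp3 read 8.16, 6.15 and 8.43 in normal LEC and 3.10, 3.10 and 3.14 in tumour LEC, so normal replicate 2 was its lowest normal array too. Perp and Nrn1 passed the test, with adjusted p-values of 0.0415 and 0.0403 (limma), and Mmp3 did not (adjusted p = 0.0774). Grem1, Mmp3 and Nrn1 were below background on all 3 tumour arrays, so their order by this measure depends in part on where each probe set reads without signal.

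Fst encodes follistatin, which binds activins tightly and some BMPs. It read 10.71, 12.60 and 13.00 in normal LEC and 12.92, 14.02 and 13.90 in tumour LEC. Tumour replicate 1 fell just below normal replicate 3, so the groups overlapped by 0.08. The difference was 1.51 (SE 0.67, 95% interval -0.16 to 3.18, limma, adjusted p = 0.356), and 0.81 without normal replicate 1. The second probe set differed by 0.92, with normal replicate 1 again the lowest array. Bambi read 7.71, 7.95 and 7.54 in normal LEC and 6.87, 7.93 and 6.45 in tumour LEC. Tumour replicate 2 lay among the normal arrays, and the difference was -0.65 (SE 0.40, 95% interval -1.63 to 0.33) and 0.010 with array weights.

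Of 78 other genes of the pathway, 70 are on the array under a single symbol, and 54 passed the filter on low values, 43 of these above background on some array. None of the 54 passed over all genes (limma, adjusted p under 0.05), and 12 had an unadjusted p under 0.05, 6 higher and 6 lower, where 15.5% of all genes did. The groups did not overlap for 20 of the 54, 13 higher and 7 lower, where 32.4% of all genes did not overlap (20.9% higher, 11.6% lower). The 13 include Bmp15, Gdf5, Hjv and Vwc2, which were at background on all 6 arrays. Genes at background were not taken out of the shares over all genes either. The median difference of the 54 was 0.03. Among 10 ligand genes tested, Bmp5 read 8.93, 5.15 and 4.82 in normal LEC and was at background in tumour LEC, at least 6.63-fold lower (adjusted p = 0.246), and Gdf2, which encodes the endothelial ligand BMP9, was at background throughout. Bmp7 and Inhbb, chosen after their values were seen, were uneven within the tumour group: Bmp7 read 4.25, 3.39 and 7.88, and Inhbb, the activin beta B subunit, 5.20, 5.07 and 8.12, in tumour replicates 1 to 3. Inhbb also read 7.78 in normal replicate 1 and 3.52 and 3.64 in the other normal arrays.

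Among 8 other receptor genes tested, Eng, the endothelial co-receptor endoglin, read 10.20, 11.07 and 11.56 in normal LEC and 12.72, 12.31 and 12.89 in tumour LEC, a difference of 1.70 (SE 0.38, limma, adjusted p = 0.147). Acvr2a, a type II receptor for activins and BMPs, differed by 0.76 (SE 0.25, adjusted p = 0.247). Both had higher values on all 3 tumour arrays, as Bmpr2 did. Among 13 antagonists and modulators, Tll1, a protease of the family that cleaves the BMP antagonist chordin, differed by 1.37 (SE 0.27, adjusted p = 0.123). Bmper, a secreted BMP modulator of endothelium, read 9.70, 7.92 and 8.30 in normal LEC and 6.64, 6.50 and 3.43 in tumour LEC (-3.12, SE 1.00, adjusted p = 0.247), with tumour replicate 3 at background.

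Of 12 SMAD genes and regulators tested, Smad1, a transducer of BMP signals, differed by 0.68 (SE 0.17, limma, adjusted p = 0.186) and Smad3, a transducer of activin and TGF-beta signals, by -0.87 (SE 0.18, adjusted p = 0.125). Neither pair of groups overlapped. Of 11 target genes tested, Id4, an inhibitor of DNA binding, read 8.78, 5.17 and 7.32 in normal LEC and was at background in tumour LEC, at least 11.4-fold lower (adjusted p = 0.0950). It passed without normal replicate 2 and with array weights. Id2 differed by -0.85 (SE 0.35, adjusted p = 0.334). Id1 and Id3, the most used readouts of BMP signalling and named after their values were seen, differed by -0.04 (SE 0.36) and -0.18 (SE 0.20), with overlapping groups.

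**Figure D4:**
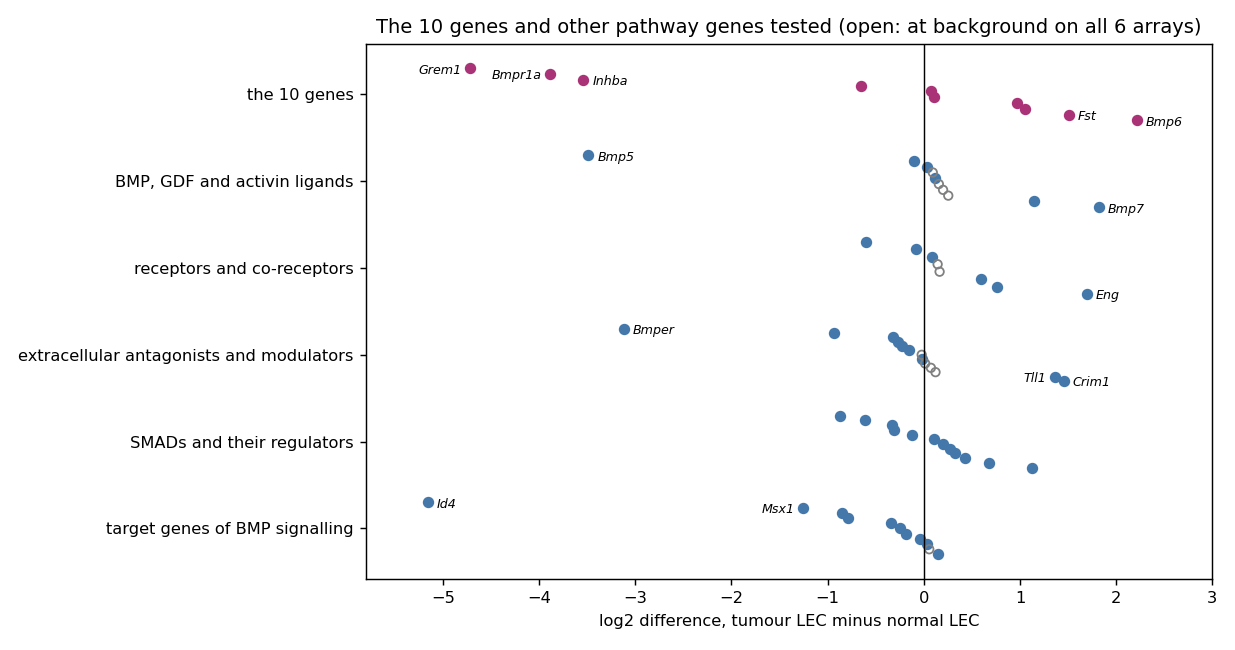
Log2 difference between tumour and normal LEC for the 10 genes and for the 54 other pathway genes tested, by role, with genes at background on all 6 arrays as open points and differences beyond 1.2 named. Differences are as fitted, and those of Grem1, Bmp5 and Id4 rest on tumour values below background. Apart from Grem1 none of the points passed the adjusted test, and Id4, Bmp5 and Bmper are the lowest of the other pathway genes.

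The cells carried endothelial and lymphatic markers in both groups. None of 12 pan-endothelial and 8 lymphatic marker genes was at background in either group. Lyve1, whose protein was used to select the cells, read 13.65 to 14.32 in normal and 14.11 to 14.91 in tumour LEC. Prox1 read 7.73 to 8.30 in normal and 7.77 to 8.92 in tumour LEC. Of the 8 lymphatic markers, Nr2f2 was lower on every tumour array (-0.98) and Itga9 was higher (0.19), and the groups overlapped for the others. Fibroblast markers were mostly lower on the tumour arrays. Of 16 such markers 14 were lower on every tumour array than on any normal array, where 11.6% of all genes tested were, and Thy1 was higher. Col1a2 alone of the 16 passed the test (limma, adjusted p = 0.0276). The summed log2 level of the 16 was 115.7 to 162.1 on normal arrays and 64.7 to 72.0 on tumour arrays. In tumour LEC, Lum, Dpt, Fap, Mfap5 and Loxl1 were at background, and in normal LEC none was on all 3 arrays. Lum and Fap were at background on 2 of the 3 normal arrays and Dpt on 1. Col1a2 read 14.29, 11.69 and 11.70 in normal LEC. The median deviation of the list from the mean of the 6 arrays was 4.01 in normal replicate 1 and 0.78 and 1.05 in the other normal arrays, and 15 of the 16 markers peaked on the first of these.

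The 3 genes with lower tumour arrays, Grem1, Inhba and Bmpr1a, all had their highest value in normal replicate 1. Grem1 differed little there from normal replicate 3, at 7.94 against 7.74. Of the 6 genes with a higher tumour mean, 4 had their lowest value in normal replicate 1, namely Bmp4, Bmp6, Bmpr2 and Fst. No share over all genes is given for these counts, so they do not set these genes apart from others. Pan-endothelial markers had their lowest median deviation, -1.34, on the same array, against 0.38 to 1.03 on tumour arrays, and their summed level was 103.6 to 119.8 on normal and 120.8 to 129.6 on tumour arrays. Without normal replicate 1, the differences were -4.42 for Grem1, -3.13 for Inhba, -3.21 for Bmpr1a, 1.47 for Bmp6 and 0.86 for Bmpr2. Leukocyte and macrophage markers had a median deviation of 1.60 in tumour replicate 1, where Bmp4 and Bmp6 were highest, and -0.43 to 0.31 elsewhere. Their summed level was 47.0 to 70.6 on tumour and 52.5 to 61.0 on normal arrays. Cd3e and Cd79a were at background in both groups. Ptprc was at background in normal LEC and, apart from 5.92 in replicate 1, in tumour LEC. Cd14, Cd68, Csf1r, Lyz2, Adgre1 and Fcer1g were above background on every array, with overlapping groups. Normal and tumour means were 10.63 and 11.14 for Cd14, 8.86 and 7.87 for Cd68 and 8.73 and 7.69 for Lyz2. They were 6.42 and 5.41 for Csf1r, 4.19 and 4.66 for Adgre1 and 5.13 and 5.99 for Fcer1g. Without tumour replicate 1 the differences were 0.38 for Bmp4 and 1.86 for Bmp6. Of 7 pericyte and smooth muscle markers, Rgs5, Des and Myh11 were at background in both groups, as were Krt14, Krt1 and Trp63 of 5 keratinocyte markers. Acta2 was bright, at 12.22 to 13.96 in normal and 10.66 to 13.28 in tumour LEC. Tagln read 9.25 to 10.85 and 9.97 to 12.92, and the groups overlapped for both genes. Krt10 read 7.09 to 7.17 in normal and 6.76 to 6.95 in tumour LEC. Cspg4, a pericyte marker, read 8.11, 5.38 and 6.66 in normal LEC replicates 1 to 3 and was at background on all 3 tumour arrays. The summed level was 38.2 to 46.3 on normal and 35.4 to 40.8 on tumour arrays for pericyte markers, and 17.8 to 17.9 and 17.8 to 18.7 for keratinocyte markers. The part of fibroblasts, pericytes or leukocytes in these results was not tested.

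**Figure D5:**
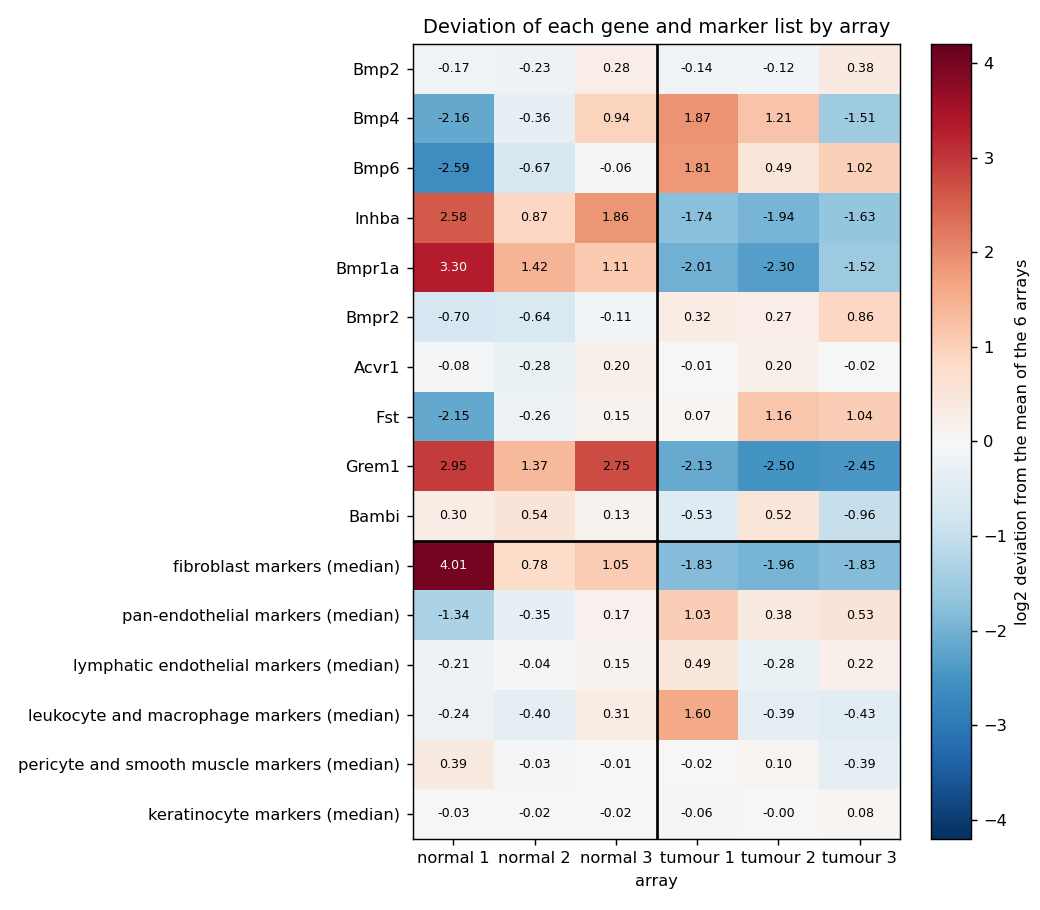
Log2 deviation of each of the 10 genes, and the median deviation of each marker list, from the mean of the 6 arrays, by array. Fibroblast markers stand at 4.01 on normal array 1 and -1.96 to -1.83 on the tumour arrays, and Grem1, Inhba and Bmpr1a are above their mean on the 3 normal arrays and below it on the 3 tumour arrays.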

How the data were processed

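Each of the 6 Affymetrix arrays held 45101 probe sets and was hybridised with RNA labelled from 50 ng of total RNA, per the labels' protocols. The authors deposited log2 expression values, 1 for each probe set and array. RMA and GCRMA are both named in the submitters' processing notes, without saying which produced the table. GCRMA compresses dim signals, so small differences of dim genes are hard to read. The number of arrays limits the precision.

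Gene names came from GEO's platform annotation, updated with a RefSeq table (GRCm38.p6), and 34945 probe sets carry a single gene. Probe sets with a mean above the 40th percentile (2.71) were kept and the brightest per gene was used. Tumour and normal arrays were compared in R 4.3.3 with limma 3.58.1 (lmFit, eBayes, two-sided, Benjamini-Hochberg over 12954 genes, threshold 0.05). The smallest p of an exact permutation test of 3 against 3 arrays is 0.1, and no such test was made. A value at or below the highest of 27 bacterial control probe sets on its array is called at background, and folds against it are lower bounds, computed with such values raised to that limit. Of these steps only the limma fit was tested on simulated data, with 200 genes changed. The filter, the choice of probe sets and the background rule were not simulated.

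The 10 genes and the lists were chosen with earlier results of these data known. Text names the 10 genes, in each role of the pathway list the genes past the threshold and the 2 of smallest p, a few marker genes, the 3 profiles nearest to each gene past the threshold, and others where said. The alternatives were other filters, normalizations, variance models, array weights, other choices of probe set, values raised to background, the replicate number as a block, and each array left out. The labels do not say whether the replicate numbers pair the arrays.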

Additional observations from a re-analysis of the deposited data

How the results depend on the processing

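Of all genes tested, 28 passed as analysed, 10 with no filter on low values, 97 with the filter at the 60th percentile, 385 with array weights, 54 with values raised to the background limit and 46 with the replicate block. With 1 array left out the count was 4 to 82, lowest without tumour replicate 3 and highest without normal replicate 1. Of the 10 BMP and activin genes 1 passed as analysed, 2 with the 60th percentile filter (Grem1, Inhba), 3 with array weights (Grem1, Inhba, Bmpr1a), and 0 with no filter (5 at an unadjusted p under 0.05) or without probe sets named _s_at, _x_at or _a_at, where Grem1 has none left. With 1 array left out it was 0 to 3. Of the other pathway genes 0 passed as analysed, 2 with array weights (Id4, Tll1), and 0 to 1 with 1 array left out (Bmp5 without normal replicate 1, Id4 without normal replicate 2). Signs turned for Bmp2 (-0.093 with array weights, -0.019 without normal replicate 2, -0.094 without tumour replicate 3, and up to 0.24 with other arrays left out), Acvr1 (-0.0023 without normal replicate 2, and up to 0.24 with other arrays left out) and Bambi (0.010 with array weights). Bmp2 was removed by the 60th percentile filter. For the other 7 genes the direction held in all alternatives that gave a value. The causes were not tested, and leaving out an array also lowers the power.

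Same-numbered arrays of the 2 groups had correlations of deviations of 0.19, 0.33 and -0.0038 across genes, and different-numbered arrays had -0.37 to 0.13. With 3 arrays per group these values cannot decide whether the numbers pair the arrays. The main fit left the numbers out because the labels do not say that they pair arrays. With the replicate block, Grem1 had an adjusted p of 0.0476 (limma), the only call among the 10 genes. Values near the background limits, such as those of Bmp2, are limited by their signal over background.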
